A study of Glycine max with 2 samples.

Results

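The nuclei described here came from soybean (Glycine max) seeds at the cotyledon (cot) stage and were chosen for high RNA of 3 genes, Glyma.17G045800, Glyma.09G029400 and Glyma.11G176200. A nucleus was kept when these genes together had at least 5 UMIs (unique molecular identifiers, each standing for 1 captured RNA molecule) and at least 20 UMIs per 10000 of that nucleus. It was left out when the set of Glyma.08G021700, Glyma.18G071400, Glyma.01G229600 and Glyma.02G277600 reached 15 per 10000 or the pair Glyma.02G111100 and Glyma.02G111200 reached 10 per 10000. The rule kept 520 of 8636 nuclei, or 6.02% (exact binomial 95% interval 5.53% to 6.54%), called KAO1-set nuclei after the annotated gene Glyma.09G029400, whose best Arabidopsis match is KAO1 (CYP88A3). The first condition alone kept 786 nuclei, of which 87 were left out by the 4-gene set and 198 by the gene pair, 19 of them by both.

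Whole soybean seeds were pooled and their nuclei put through 1 droplet run in which RNA (snRNA) and open chromatin (snATAC) were read from the same nucleus. All nuclei came from the same pool of cultivar Williams 82, grown in a greenhouse with no treatment named, and there was 1 library for each assay. Cell types of the embryo, endosperm and seed coat were therefore compared within 1 library, and no replicate separates a difference from that library's own error. Intervals given below cover counting error only.

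Gibberellins are plant hormones that drive growth and are made in developing embryos. Their synthesis starts in the plastid, where ent-copalyl diphosphate synthase (CPS) makes the first committed precursor. KAO, ent-kaurenoic acid oxidase, is a cytochrome P450 that carries the pathway to the first gibberellin, after which GA20OX and GA3OX enzymes make the active hormones and GA2OX enzymes remove them. Hormone is sensed by GID1 receptors. YAB1 (FILAMENTOUS FLOWER), the other marker given for these nuclei, is a YABBY transcription factor that in Arabidopsis marks the lower, abaxial side of leaves, cotyledons and other lateral organs. Gene names are those of the best Arabidopsis match in the study's tables. Glyma.17G045800, Glyma.11G176200 and the 6 excluding genes have no annotation in the sources used here and are given by identifier only.

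The RNA library held 39881831 UMIs. The KAO1-set nuclei held 5.03% of them, with a median of 2770.5 UMIs and 2262 genes per nucleus, against medians of 2961 UMIs and 2284.5 genes in the 8116 other nuclei. Every one of the 8636 barcodes also had chromatin fragments. The median number of fragments of the KAO1-set nuclei was 10857.5, against 7646 in the other nuclei. Fragment depth thus moved with the choice of nuclei, and its part in the results was not tested. Doublets were not removed, and 7 KAO1-set nuclei were above 15000 UMIs.

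The 3 rule genes are high by choice, so their levels are a description. Glyma.17G045800 was the most abundant, at 1849 CPM (UMIs per 1000000 UMIs of the group; exact Poisson 95% interval 1790 to 1910) in the KAO1-set nuclei and 253 in the other nuclei. KAO1 itself, Glyma.09G029400, stood at 1122 against 137 CPM. Glyma.11G176200 stood at 729 against 101 CPM. A UMI of Glyma.17G045800 was found in 90.0% of the KAO1-set nuclei, of KAO1 in 78.3% and of Glyma.11G176200 in 61.3%. In the seed coat epidermis nuclei introduced with YAB1, these shares were 29.8%, 23.1% and 15.0%. Thinned to 500 UMIs per nucleus they were 59.6%, 39.04% and 24.8%, against 7.30%, 5.16% and 3.10%. All 3 genes were seen together in 238 nuclei, 2 of them in 198 and a single one in 84. The chosen nuclei held 27.9% of the library's Glyma.17G045800 UMIs, 30.2% of its KAO1 UMIs and 27.7% of its Glyma.11G176200 UMIs, so most of the RNA of each gene lay outside them.

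The rule cut through a continuous range. Summed over the 3 genes, the KAO1-set nuclei ran from 20.0 to 140 UMIs per 10000 with a median of 34.1, and the other nuclei had a median of 2.19. Just inside the cut, 113 nuclei at 20 to 25 per 10000 had 185 CPM (151 to 223) of the YAB1 gene Glyma.01G137200. Just outside, 97 nuclei at 15 to 20 per 10000 had 130 (102 to 164). On the UMI minimum, the 114 nuclei with 5 or 6 UMIs had 212 CPM (157 to 280) of Glyma.01G137200. The 65 with 3 or 4 UMIs had 302 (199 to 439). At the 4-gene set's limit, 16 nuclei at 10 to 15 per 10000 were inside with 432 (321 to 569). The 9 nuclei at 15 to 20 were outside with 718 (515 to 974). At the gene pair's limit, 56 nuclei at 5 to 10 per 10000 were inside with 213 (161 to 275). The 40 nuclei at 10 to 15 were outside with 265 (200 to 345). At each cut the intervals overlapped.

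YAB1 RNA, which the rule did not use, was enriched in the KAO1-set nuclei. Glyma.01G137200 was at 329 CPM (305 to 355) in them and at 37.0 in the other nuclei, a ratio of 8.90 (8.10 to 9.77). It was detected in 40.4% of KAO1-set nuclei (36.1% to 44.7%), or 15.0% once every nucleus was thinned to 500 UMIs, a step that left out 27 nuclei and none of the KAO1-set. In 2191 nuclei rich in seed coat epidermis genes, which should lack it, the share was 6.21%, or 0.958% after thinning, at median depths of 2770.5 and 3065 UMIs. The other 310 KAO1-set nuclei had no UMI of this marker. Among nuclei outside the set, 2 groups were cut from the excluding genes, called Glyma.08G021700 nuclei and Glyma.02G111100 nuclei. Glyma.01G137200 was at 139 CPM in the 318 nuclei of the former group and at 59.3 in the 740 of the latter.

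The label of embryo nuclei was then checked on 8 genes that the study listed both for 1 nuclear cluster and as embryo proper genes in laser-captured tissue. The first of these lists was chosen by the study on these nuclei, so the 8 genes are not independent evidence of an embryo origin. All 8 were at least 3-fold higher in the KAO1-set nuclei, at 2436 against 323 CPM for their sum. That sum was 1212 in the Glyma.08G021700 nuclei and 597 in the Glyma.02G111100 nuclei. The dirigent-like genes Glyma.04G124100 and Glyma.04G139800 were at 536 and 396 CPM, 9.87 and 10.9 times the level of the other nuclei. At least 3 of the 8 were detected in 259 KAO1-set nuclei, 1 or 2 in 162 and none in 99. Among the other nuclei, 58.4% had none.

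Markers of other seed tissues were present as well. The summed levels in the KAO1-set nuclei were 246 CPM for 4 endosperm genes, 647 for 7 seed coat epidermis genes, 622 for 3 outer integument genes and 601 for 6 seed vasculature genes. In the other nuclei these sums were 865, 3174, 898 and 482. None of the 20 marker genes was at 0. A cut of at least 5 UMIs and 20 per 10000 on each list was passed by 9 KAO1-set nuclei for endosperm, 31 for seed coat epidermis, 10 for outer integument and 50 for seed vasculature. In all, 94 of the 520, or 18.1%, passed at least 1 of these cuts. The nuclei that passed a list held 81.1%, 80.8% and 65.0% of the seed coat epidermis, outer integument and seed vasculature UMIs. For endosperm the nuclei that passed held 23.5%. The label of embryo therefore did not hold for every nucleus that met the rule.

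Open chromatin, which the rule did not use, sorted the same nuclei further. Each nucleus was placed by its accessible peaks, and its 20 nearest neighbours were found without any RNA. Of the neighbours of KAO1-set nuclei, 32.9% were KAO1-set nuclei, against 6.02% of all nuclei. At least 10 such neighbours were counted for 159 of them, or 30.6%, and for 2.11% of the other nuclei. At the other end, 54 KAO1-set nuclei had no neighbour of their own kind. Nuclei that met no list made up 34.5% of their neighbours and 40.1% of all nuclei. Seed coat epidermis nuclei made up 6.54% and 25.4%, endosperm nuclei 1.30% and 4.64%, and seed vasculature nuclei 7.92% and 5.15%. Outer integument nuclei made up 2.05% and 8.18%. The Glyma.08G021700 nuclei made up 5.72% and 3.68%, and the Glyma.02G111100 nuclei 9.41% and 8.57%.

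Clustering the chromatin neighbours gave 18 clusters, numbered here by falling count of KAO1-set nuclei. This clustering was added after the data had been seen. A cluster was called embryo-like when at least 3 of the 8 embryo genes were found in 10% of its nuclei or more at 2 times the level of the rest, and likewise for the other marker lists. Clusters 1, 2 and 4 were embryo-like, with 8, 5 and 7 of the 8 genes. They held 350 of the 520 KAO1-set nuclei, or 67.3% (63.1% to 71.3%), among 1025 nuclei in all. The remaining 675 nuclei of these clusters did not meet the rule, with 2224 CPM of the 3 rule genes against 3987 in the 350. Cluster 1 had 249 KAO1-set nuclei among 613, cluster 2 had 63 among 170 and cluster 4 had 38 among 242. Cluster 3 was seed vasculature-like, with 6 of 6 genes, and had 61 among 559. A further 23 lay in cluster 5, which was seed vasculature-like with 3 of 6 genes, and 86 were spread over the other 13 clusters, at most 20 in each.

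**Figure D1:**
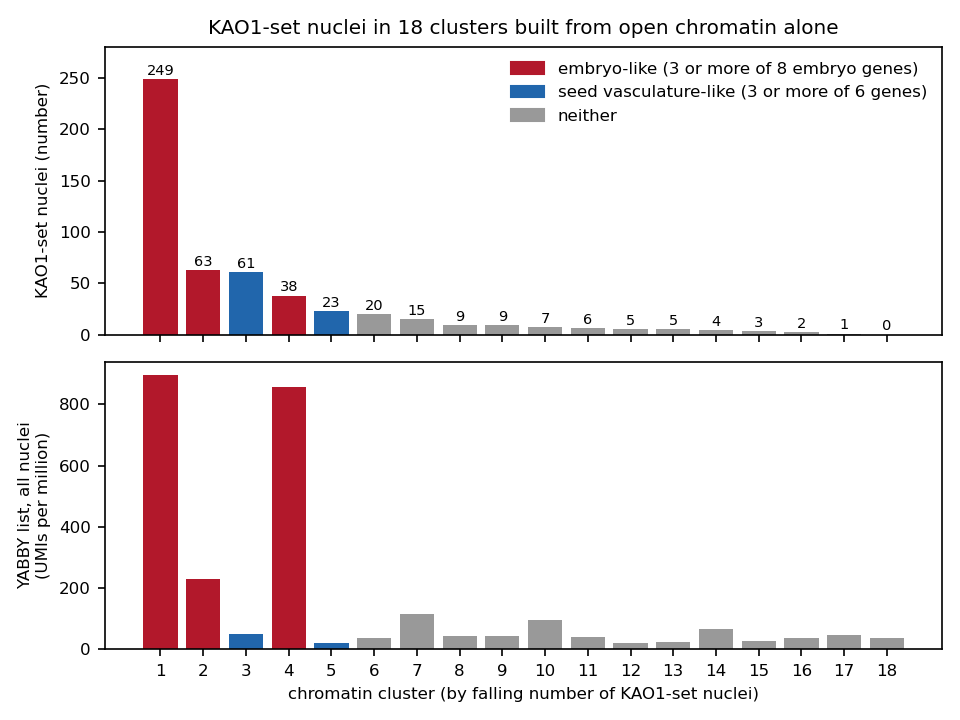
Number of KAO1-set nuclei (top, count) and summed level of the YABBY list in all nuclei (bottom, CPM) in each of 18 clusters built from open chromatin alone. Red bars are embryo-like clusters, blue bars seed vasculature-like clusters and grey bars neither. Clusters 1 and 4 stand far above the rest in YABBY RNA, while cluster 3 holds 61 KAO1-set nuclei with little of it.

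The 61 KAO1-set nuclei of cluster 3 met the rule mostly through 1 gene. Glyma.17G045800 was at 2535 CPM (2309 to 2778) in them, above the 2001 of the 249 in cluster 1. KAO1 was at 324 (247 to 419) against 1307, and Glyma.11G176200 at 93.5 against 733. No UMI of the CPS gene Glyma.03G154700 was counted in cluster 3, which allows up to 20.3 CPM, against 323 in cluster 1. The 6 seed vasculature genes, 4 bZIP9 transcription factors and 2 SWEET13 sugar transporters, summed to 3833 CPM there and to 178 in cluster 1. Of the 61 nuclei, 41 passed the seed vasculature cut. Glucan synthase-like genes, whose Arabidopsis counterparts make callose, were among the leading RNAs of cluster 3 as a whole. The label of embryo was not borne out in these nuclei, where none of the 8 embryo genes marked the cluster.

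Across the set, the 350 embryo-like nuclei and the other 170 did not differ beyond counting error in Glyma.17G045800, at 1862 and 1824 CPM, a ratio of 1.02 (0.953 to 1.09). KAO1 was at 1318 against 722, a ratio of 1.83 (1.65 to 2.02), and Glyma.11G176200 at 807 against 568. Every nucleus had to reach the rule's cut on the sum of the rule genes, so their levels are a description. CPS was at 281 against 39.5 and the YABBY list at 1013 against 301. CPS and the YAB1 genes Glyma.01G137200 and Glyma.03G029800 are among the 8 genes that named the clusters, so these values are a description. Of genes outside the 8, the YAB1 gene Glyma.17G138200 was at 122 against 31.9, a ratio of 3.84 (2.43 to 6.37), and Glyma.19G133600 at 291 against 66.9. The maturation regulators were at 667 against 222, while the GA20OX2 gene Glyma.03G019800 had a ratio of 1.56 (0.987 to 2.56). The endosperm and cell division lists had ratios of 0.957 and 0.916, with intervals that include 1. The seed vasculature list was at 193 against 1435, the outer integument list at 131 against 1628 and the seed coat epidermis list at 457 against 1036. Median depth was 2855.5 against 2646 UMIs and 13144 against 6501 fragments, and the part of fragment depth in the split was not tested.

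In the 675 other nuclei of the embryo-like clusters, several of these RNAs were lower, but not all. CPS was at 186 CPM in them, the YABBY list at 672 and the maturation regulators at 590. The embryo epidermis list was instead higher, at 30.5 against 11.9 in the 350 KAO1-set nuclei. In cluster 2 alone the YABBY list was higher too, at 267 CPM in the 107 other nuclei against 158. The cell division genes of the 675 summed to 394, against 156 in the 350 KAO1-set nuclei. The rule itself had placed nuclei rich in the Glyma.08G021700 set among them, at 1160 against 235. That set's own nuclei had the highest cell division sum, and their part in the difference was not tested.

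The embryo-like KAO1-set nuclei differed among themselves. In cluster 1, the 7 YABBY genes summed to 1079 CPM (1015 to 1146). In cluster 2 the sum was 158 (112 to 216), and in cluster 4 it was 2162 (1909 to 2438). KAO1 followed the same order over a narrower range, at 1307, 1016 and 1998 CPM. The members of the family were not shared evenly. The YAB1 gene Glyma.01G137200 was at 432, 78.8 and 1060 CPM in clusters 1, 2 and 4, and the YAB5 gene Glyma.17G113400 at 42.7, 0 and 285. The YAB1 gene Glyma.17G138200 instead was highest in cluster 1, at 159 against 4.15 and 65.3. The maturation regulators, at 674, 593 and 750, had overlapping intervals across these clusters.

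Cluster 2 carried shoot meristem RNAs. STM (SHOOT MERISTEMLESS), a homeobox factor that keeps the shoot meristem undifferentiated, was at 153 CPM for Glyma.09G007500 and 95.4 for Glyma.15G111900 in its 63 KAO1-set nuclei. In cluster 1 the same genes were at 5.09 and 1.02. Over all 170 nuclei of cluster 2 the leading RNAs were the KNAT6 homeobox genes Glyma.08G284300 and Glyma.18G141200, at 100 and 122 CPM against 1.68 and 2.07 elsewhere. The rule gene Glyma.11G176200 was higher in cluster 2 (1074, interval 947 to 1213) than in cluster 1 (733, interval 681 to 789). ANT, a transcription factor that acts in organ primordia, had 24 UMIs in cluster 1, or 24.4 CPM (15.6 to 36.3). It had none in clusters 2, 3 and 4, which allows up to 15.3, 20.3 and 30.1 CPM. Clusters 3 and 4 could therefore not be told apart from cluster 1.

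Cluster 4 carried epidermal RNAs. Its 38 KAO1-set nuclei had 48.9 CPM of the SPCH gene Glyma.06G125500, from 6 UMIs, against 5.09 in cluster 1. SPCH is the factor that starts the stomatal lineage in the epidermis. The gibberellin-regulated gene Glyma.08G291900 was at 522 against 15.3, and the GASA1 gene Glyma.18G132100 at 237 against 3.05. The oleosin family gene Glyma.19G063400 was at 294 against 27.5. Among the leading RNAs of the whole cluster was the LTP1 gene Glyma.03G040400, a lipid transfer protein of the plant surface, at 346 CPM against 6.52 elsewhere. Its KAO1-set nuclei also had 962 CPM of the seed coat epidermis list, against 407 in cluster 1, and the part of these in the result was not tested.

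**Figure D2:**
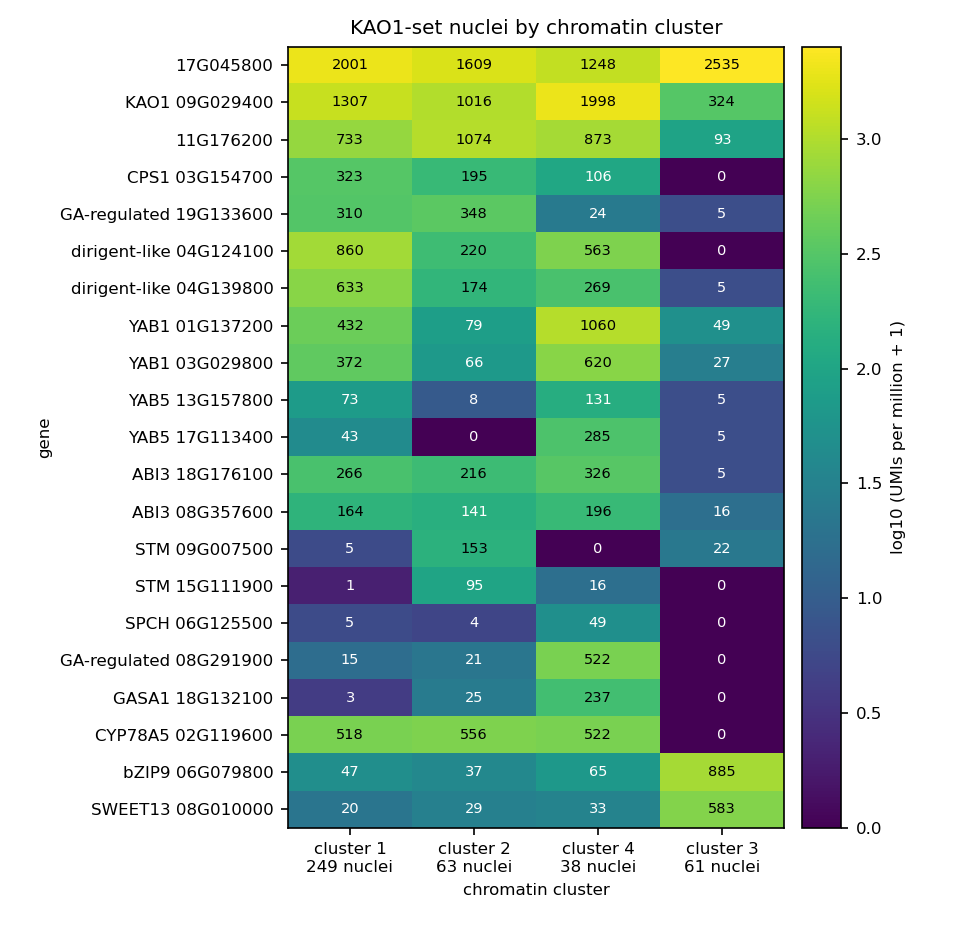
Levels of 21 genes (rows; CPM printed in each cell, colour on a log10 scale after adding 1) in the KAO1-set nuclei of chromatin clusters 1, 2, 4 and 3 (columns). KAO1 is high in the first 3 columns, STM highest in cluster 2, SPCH and Glyma.08G291900 in cluster 4, and bZIP9 and SWEET13 in cluster 3.

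The gibberellin genes were described next, in pathway order. The list held 16 genes, of which KAO1 was a rule gene and 11 had at least 50 UMIs in the library. Of those 11, 3 met the size rule for a higher gene, which asks for detection in at least 25% of the KAO1-set nuclei and a level at least 2 times that of the other nuclei. Over all 33081 genes with 50 UMIs or more the size rule called 161, or 0.487%. The list's median log2 ratio was 2.60, beside -0.05 over all genes. At any detection share, 7 of the 11 were at least 2-fold higher and 3 were at 0.5 times or less. Over all genes these shares were 7.46% and 13.0%. The 3 were KAO1, CPS and a gibberellin-regulated gene. KAO1 is high by choice and is counted both in the 3 and in the median. Outside the list, Glyma.08G163900, annotated as GA2 (KS1), also met the size rule, at 111 against 31.4 CPM. It was named after its value was seen.

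CPS, Glyma.03G154700, was at 202 CPM (182 to 222) in the KAO1-set nuclei and 18.98 in the other nuclei, a ratio of 10.6 (9.37 to 12.01). It was detected in 31.9% of them and in 2.15% of the seed coat epidermis nuclei, or in 7.50% and 0.319% after thinning. Its level was 70.0 in the 318 nuclei rich in the Glyma.08G021700 set and 60.1 in the 740 rich in the Glyma.02G111100 pair, 2 other groups cut from the excluding genes. In the endosperm, seed coat and vasculature groups it was at 3.49 to 6.36.

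GA20OX2 RNA was lower but similarly placed. Glyma.03G019800 was at 52.4 CPM (42.8 to 63.4) against 6.60, and Glyma.07G081700 had 19 UMIs, or 9.48 CPM, against 0.739. GA3OX1, the enzyme of the last activating step, was represented by Glyma.04G071000 and Glyma.06G072600, with no UMI in the KAO1-set nuclei. That allows up to 1.84 CPM, and the other nuclei had 0.132 and 0.0264 CPM, so no difference was detectable at this depth. The removing enzyme GA2OX8, Glyma.06G193100, was at 20.9 against 3.70. GA2OX1 and GA2OX2 had 1 and 0 UMIs, and the receptor GID1B, Glyma.10G022900, had 1.

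The gibberellin-regulated genes split. Glyma.19G133600 was at 217 CPM (198 to 239) against 23.3, a ratio of 9.35. Glyma.08G291900 and the GASA1 gene Glyma.18G132100 were at 44.9 and 20.0 against 7.39 and 3.01. The other GASA1 gene, Glyma.19G013000, was at 31.4 against 173, and Glyma.03G131700 at 57.4 against 140. Both of these had their highest level in the seed coat epidermis nuclei, at 398 and 303. Glyma.09G095200 was at 9.98 against 12.8, with a ratio interval of 0.472 to 1.22. Within the KAO1-set nuclei, Glyma.19G133600 was at 310 and 348 in clusters 1 and 2 and at 24.5 in cluster 4, the reverse of Glyma.08G291900.

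**Figure D3:**
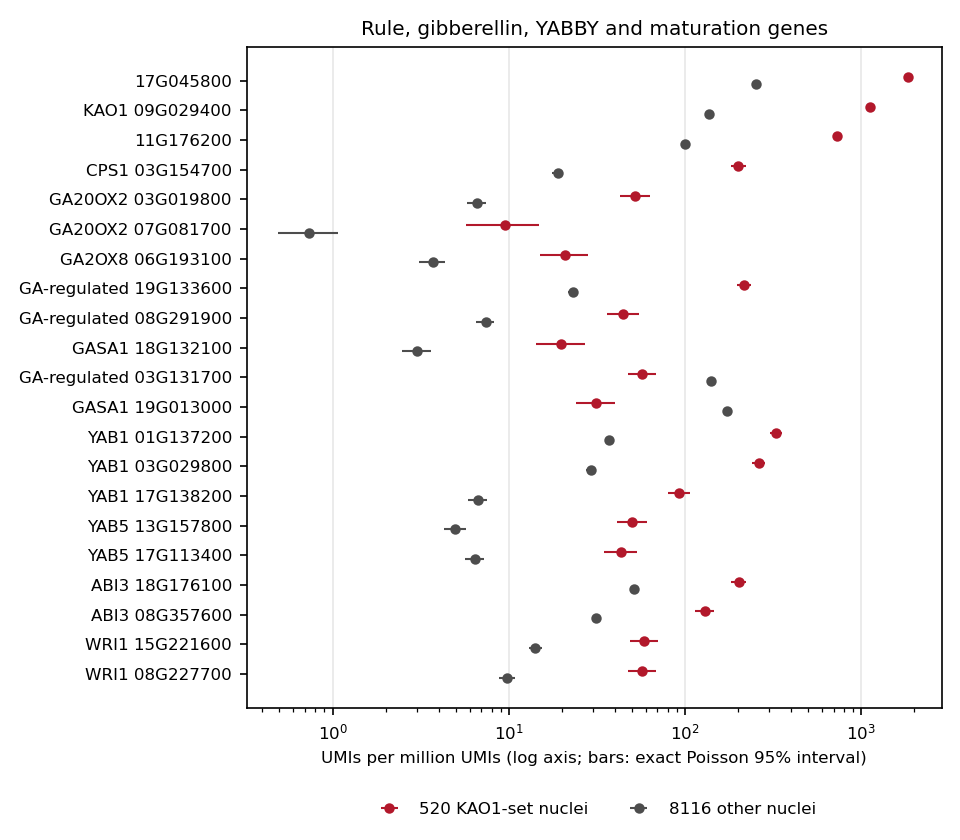
Levels of the 3 rule genes and of selected gibberellin, YABBY and maturation genes in the 520 KAO1-set nuclei (red) and the 8116 other nuclei (grey), in CPM on a log axis with exact Poisson 95% intervals. Of the 21 genes plotted, all but Glyma.03G131700 and Glyma.19G013000 lie to the right in the KAO1-set nuclei.

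All 5 YABBY genes with 50 UMIs or more were raised at least 2-fold, with a median log2 ratio of 3.17. At any detection share, 7.46% of all genes were that much higher. The whole list summed to 779 CPM, against 84.5 in the other nuclei. It was at 381 in the Glyma.08G021700 nuclei and 121 in the Glyma.02G111100 nuclei. After Glyma.01G137200, the second YAB1 gene Glyma.03G029800 was at 263 CPM (241 to 287) against 29.3. The third, Glyma.17G138200, was at 92.8 against 6.68, the largest ratio of the family at 13.9 (11.4 to 16.8). The YAB5 genes Glyma.13G157800 and Glyma.17G113400 were at 50.4 and 43.4 against 4.99 and 6.42. The ovule and carpel members INO and CRC had no UMI in the KAO1-set nuclei. Only the first 2 YAB1 genes reached the detection share of the size rule.

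Seed maturation regulators were higher by a smaller factor. ABI3, a B3 factor that switches on storage programs, was at 203 CPM (184 to 224) for Glyma.18G176100 and 130 for Glyma.08G357600, 3.95 and 4.11 times the other nuclei, and both met the size rule. WRI1, which drives fatty acid synthesis, was at 58.9 for Glyma.15G221600 and 57.4 for Glyma.08G227700, with ratios of 4.15 and 5.84. The FUS3 genes Glyma.16G050300 and Glyma.19G100900 had ratios of 4.08 and 1.98. Unlike YAB1, ABI3 was also high in the Glyma.02G111100 nuclei, where Glyma.18G176100 stood at 165. That group also had 3117 CPM of the endosperm list.

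Storage RNA itself was scarce, at 238 CPM for the whole list against 43.2. Of 17 storage protein and oil body genes, 7 had 50 UMIs or more and none met the size rule, while 5 were at least 2-fold higher and 1 was lower. The trypsin inhibitor gene KTI1, Glyma.08G341500, was at 142 CPM (126 to 160) against 13.7. The oleosin gene Glyma.19G063400 was at 46.4 against 12.5. The lower one was Glyma.10G193900, an OLEO1 gene, with 2 UMIs or 0.998 CPM against 4.99. The CRU1 globulin genes Glyma.03G163500 and Glyma.10G037100 had 1 and 0 UMIs.

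Patterning and auxin genes were low in number of molecules. Of 16 embryo pattern genes, 10 had 50 UMIs or more, 6 were at least 2-fold higher and none reached the detection share. Besides STM and ANT, these were the SCR genes Glyma.18G220100 and Glyma.09G270000, at ratios of 5.76 and 3.74, and KAN4, Glyma.17G246200, at 12.6 (7.66 to 20.4). The 4 SHR genes, partners of SCR in the root ground tissue, had ratios from 0.714 to 1.48. The 8 measured genes of the auxin list went both ways, with 4 at least 2-fold higher, 3 at 0.5 times or less and a sum of 260 CPM against 349. Among them, the 3 LAX2 influx genes had ratios of 4.88 to 8.65. The AUX1 gene Glyma.07G147000 was lower, at 89.3 against 205 CPM.

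Cell division RNAs were not raised as a group. Their sum was 161 CPM against 168 in the other nuclei and 901 in the Glyma.08G021700 nuclei. The 3 CYCB2;3 mitotic cyclin genes had ratios of 0.736 to 0.777, 1 of them (Glyma.04G001100) turning to 1.17 under stricter cuts, and CDC20.1, Glyma.11G012400, had 0.182. The kinesin PAKRP1, Glyma.01G012700, of the dividing cell's phragmoplast, had a ratio of 1.68.

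The genes highest in the KAO1-set nuclei were chosen on every other nucleus and measured in the rest, with the 9 rule and excluding genes left out. In the choosing nuclei 172 genes met the size rule and 117 of them, or 68.0%, met it in the held-out nuclei. Their median ratio was 2.51 and then 2.46. All of the 20 with the largest ratio stayed more than 5-fold higher in the 260 held-out KAO1-set nuclei. CPS led them there at 12.2 (10.3 to 14.5), with 233 CPM. Glyma.12G096000, Glyma.02G278000, Glyma.14G120900 and Glyma.19G240800 were found in 21.9% to 24.6% of the held-out KAO1-set nuclei, under the 25% of the size rule. Over all nuclei, the size rule called 0.487% of all genes higher.

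Several of the 20 belong to growth and metabolism. CYP78A5 (KLU), a cytochrome P450 that promotes organ growth in Arabidopsis, was represented by Glyma.02G119600 at 397 CPM and a held-out ratio of 6.98, and by Glyma.19G240800 at 5.46. Glyma.05G075100, of the AMP-dependent synthetase family, was at 399 and 9.30. Glyma.11G164500, annotated as a malonyltransferase of the acyl carrier protein, was at 422 and 7.58. THIC, Glyma.18G065700, an enzyme of thiamine synthesis, had a ratio of 5.71. CLE22, Glyma.02G278000, a small signal peptide gene, had 7.42. Glyma.18G045200, Glyma.12G096000, Glyma.15G018100, Glyma.07G222000, Glyma.05G014500 and Glyma.14G120900 have no annotation in the sources used here and had ratios from 6.09 to 10.0. By chromatin cluster, CYP78A5 Glyma.02G119600 was at 518, 556 and 522 CPM in clusters 1, 2 and 4, with no UMI in cluster 3. Glyma.07G222000 was at 320 and 367 in clusters 1 and 4 and at 16.6 in cluster 2. CLE22 was highest in cluster 4, at 636 against 233 and 129 in clusters 1 and 2, and Glyma.11G164500 in cluster 1, at 641 against 232 and 400 in clusters 2 and 4.

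**Figure D4:**
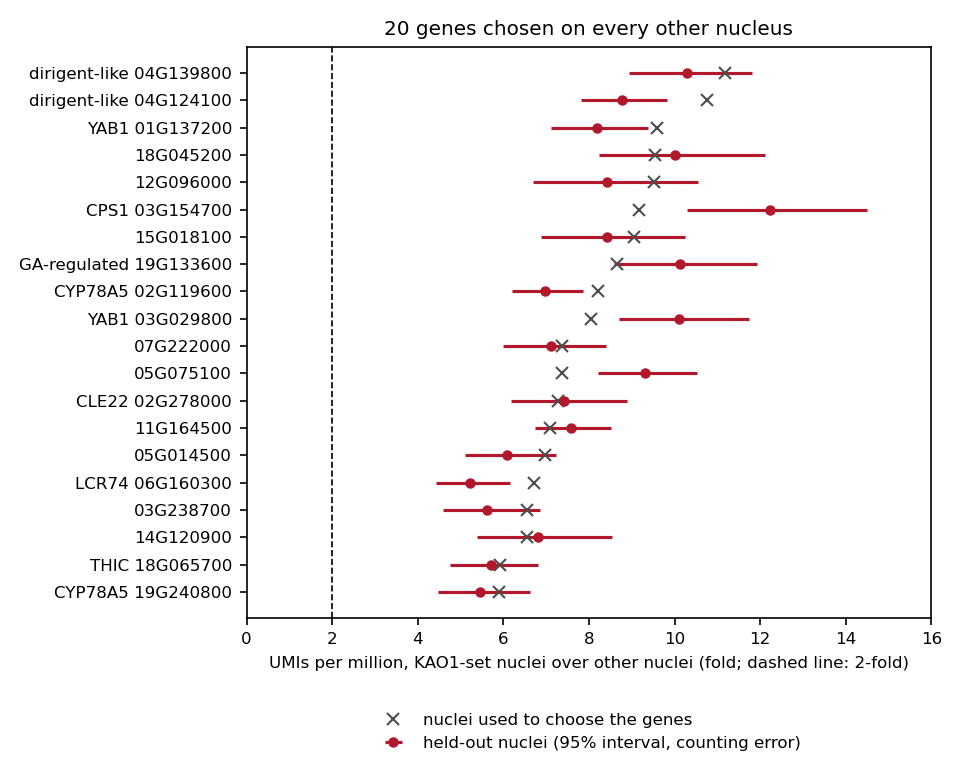
Ratio of CPM in KAO1-set nuclei to other nuclei for 20 genes chosen on every other nucleus (crosses) and measured in the held-out nuclei (red points, exact 95% interval for counting error). All 20 held-out ratios lie above 5, well to the right of the dashed 2-fold line.

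The size rule called 100 genes, or 0.302%, lower in the KAO1-set nuclei, 5 of them seed coat epidermis genes. All 7 genes of that list were at 0.5 times the other nuclei or less. At any detection share 13.0% of all genes were that low, not counting 545 with no UMI in the KAO1-set nuclei. The list's sum of 647 CPM was not particular to these nuclei. It was 610 in the Glyma.02G111100 nuclei, 495 in endosperm nuclei and 290 in nuclei that met no list. It was 703 in seed vasculature nuclei, 917 in outer integument nuclei and 2038 in the Glyma.08G021700 nuclei. The seed coat epidermis nuclei, which are among the other nuclei, had 8299. BAN, the anthocyanidin reductase of tannin synthesis, was at 173 CPM against 1088, and was detected in 5.96% of KAO1-set nuclei. TT8 and TTG2, regulators of the same pathway, had ratios from 0.222 to 0.279 over 4 genes. The flavonoid enzyme genes Glyma.06G202300 (TT7) and Glyma.14G072700 (DFR) had ratios of 0.120 and 0.163.

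Lists from laser-captured tissue did not use these nuclei. The embryo proper genes were taken only from the study's embryo coexpression modules EMB1 to EMB8, so they overlap the module counts given next. Of 263 embryo proper genes, 164 had 50 UMIs or more, and 146 of these were at least 2-fold higher in the KAO1-set nuclei, with a median log2 ratio of 2.23. This compares with 7.46% of all genes. The 263 genes summed to 6411 CPM, against 1272 in the other nuclei, 3246 in the Glyma.08G021700 nuclei and 2065 in the Glyma.02G111100 nuclei. Only 9 of the 164 reached the detection share of the size rule. Of the 164, 1 had no UMI in the KAO1-set nuclei, and none of the rest was at 0.5 times the other nuclei or less.

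The study's coexpression modules of embryo RNAs differed in how far they rose. In module EMB2, 16 of 18 genes were at least 2-fold higher, and in EMB4 77 of 97. In EMB1, EMB6, EMB7 and EMB8 the counts were 190 of 530, 56 of 136, 70 of 211 and 239 of 595. The EMB8 list was held only in part, and EMB3 and EMB5 had 6 genes and 1 gene to measure. Module EMB6 was higher still in the seed vasculature nuclei, at 3757 CPM against 1835 in the KAO1-set nuclei. LHCB2.1, Glyma.14G008000, a light-harvesting protein gene of module EMB7 stood at 921 against 526 CPM.

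**Figure D5:**
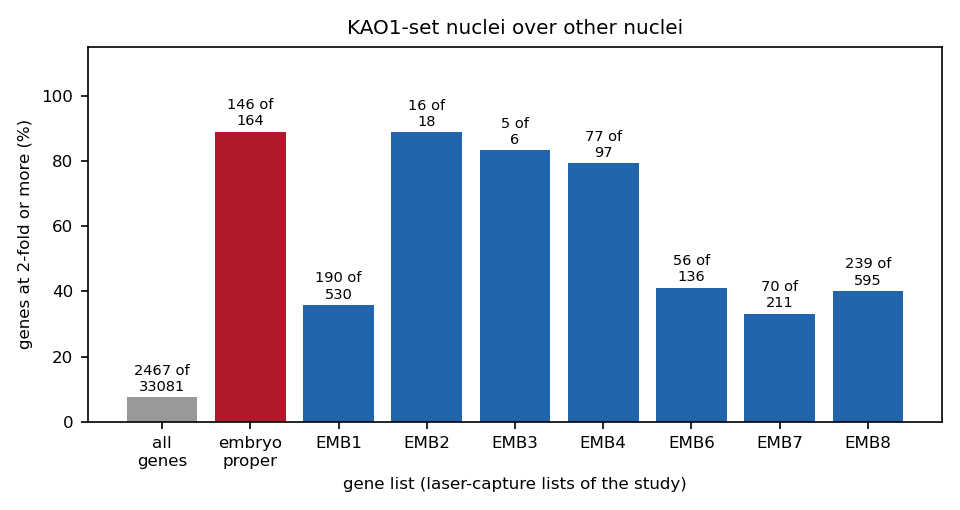
Share of genes (%) at least 2-fold higher in KAO1-set nuclei than in other nuclei, for all genes with 50 UMIs or more (grey), embryo proper genes of laser-captured tissue (red) and 7 embryo coexpression modules (blue), with counts above the bars. The embryo proper genes and modules EMB2 to EMB4 stand above 79%, and all genes at 7.46%. The embryo proper genes were taken from the embryo module lists, so the bars overlap.

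After thinning to 500 UMIs, the ratio of variance to mean was 1.19 for Glyma.17G045800, 1.51 for KAO1, 1.80 for Glyma.11G176200 and 1.26 for the YAB1 gene, with a median of 1.04 over 1872 genes. The largest value was 15.7 for Glyma.10G214500, found in 3.08% of the thinned nuclei, with up to 26 UMIs in 1 nucleus. LTP4, Glyma.01G132500, followed at 6.89. Both were lower in the KAO1-set nuclei than elsewhere, at 1012 against 4658 and 164 against 1086 CPM. Glyma.08G137000, Glyma.09G092700 and the RD22 gene Glyma.07G176700 completed the 5, at 4.02, 3.63 and 3.11.

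Peaks of open chromatin were chosen on every other nucleus in the same way. Of 119503 peaks seen in at least 20 nuclei, 3307 were at least 2 times more open in KAO1-set nuclei and seen in at least 5% of them. In the held-out nuclei 1910 of these, or 57.8%, passed again, against 2.93% of all peaks. The 3307 had a median held-out ratio of 2.27, and all peaks 0.936. That median was 2.61 in the KAO1-set nuclei of the embryo-like clusters and 0.975 in those of the other clusters. The clusters were built from the same peaks, so these medians are a description. Among the 10 peaks with the largest ratio, 1 on chromosome 14 was at 2.97 and 2.89 fragments per 1000000 in the same groups. It had only 9 held-out fragments in all, too few to compare them. The 3307 peaks made up 1.81% (chromosome 20) to 3.45% (chromosome 14) of the peaks of each chromosome.

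The 10 peaks with the largest ratio in the choosing nuclei rested on few fragments. Positions are those of the files, on Wm82.a2.v1, and no annotation of that build was used here, so the peaks were not tied to genes. The deepest was on chromosome 13 from 23122102 to 23122793, with 30 held-out fragments, 9.85 per 1000000 in-peak fragments (6.65 to 14.1) against 1.70. It was seen in 11.2% of KAO1-set nuclei and 1.70% of the others, and stood at 12.3 in the embryo-like clusters and 1.45 in the rest of the set. A peak on chromosome 3 from 5070808 to 5071238 was at 5.58 against 1.10, and 1 on chromosome 9 from 43147150 to 43147714 at 5.58 against 1.15. The peak on chromosome 13 from 27294108 to 27295126 was at 6.24 against 1.67, and also at 6.52 in the Glyma.08G021700 nuclei. For 3 of the 10, with 4 to 6 held-out fragments, the interval of the ratio included 1. Of the 10, those on chromosomes 2, 4, 7, 14 and 19 were seen in 1.54% to 3.46% of held-out KAO1-set nuclei. They thus failed the 5% share there.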

How the data were processed

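Cotyledon-stage soybean seeds were pooled, and 10000 nuclei were loaded for joint snRNA and snATAC. The authors used Cell Ranger ARC 1.0 on the Wm82.a2.v1 genome, with bcl2fastq 2.20.0.422 and Seurat 4.1.1 named in the submitters' notes, and removed ambient RNA with SoupX, which changes low counts. The deposited matrix holds whole UMI counts for 56044 genes and 8636 nuclei, 18.2% of its stored entries being 0. The deposited fragment file gives read counts per fragment. Each fragment was counted once, and 90.3% of fragments lay in these nuclei.

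The members and gene lists were chosen with earlier results of these data known. UMIs were summed over each group and given per 1000000 (CPM). With 1 library there was no test. Intervals are exact Poisson, exact binomial and, for ratios, exact conditional, at 95%. A gene was called higher by size when found in 25% of members at 2 times the other nuclei, and lower when found in 25% of other nuclei at 0.5 times. Named genes were all rule, gibberellin and YABBY genes, up to 4 of each other list, and the 20 genes and 10 peaks with the largest ratio on every other nucleus. Genes of clusters and single list members outside this rule were chosen after their values were seen.

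Peaks seen in 20 nuclei were reduced to components 2 to 30 by latent semantic indexing, and neighbours clustered by Leiden (leidenalg 0.10.2, Python 3.11.15, SciPy 1.17.1, scikit-learn 1.9.0). The size rule was tested on simulated data. Genes with near-identical copies can share reads, so levels of single paralogs are uncertain. For medians of log2 ratios, a gene with no member UMI was set at 3 UMIs. The values of 1 gene of the auxin list are not reported here.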

Additional observations from a re-analysis of the deposited data

How the results depend on the processing

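No paired analysis was possible because each assay had 1 library. Cuts of 10 UMIs and 30 per 10000 kept 219 nuclei, and no exclusion kept 786. The 161 higher and 100 lower genes became 4 and 8 when every nucleus was thinned to 500 UMIs, with the 25% share unchanged. Added after seeing the data, leaving out members that pass another cell type's list gave 245 and 164 (160 of the 161 shared), and keeping only those in embryo-like clusters gave 383 and 195 (159 shared). The YAB1 ratio of 8.90 was 7.73 by per-nucleus means, 7.48 without nuclei over 15000 UMIs, 9.80 under the stricter cuts, 10.6 without other-list members and 11.5 in embryo-like clusters. Members made up 30.4% of 50 neighbours, 30.5% with components 2 to 15, 34.3% without nuclei under 3000 fragments and 34.7% without other-list members. Held-out peaks numbered 84 at 4-fold and 1012 at 10% of members. The cause of these shifts was not tested. No gene called by size changed direction among those whose ratio was recomputed. Of 117 gene ratios, 16 crossed 1 under at least 1 alternative, all of them between 0.736 and 2.22. All 6 seed vasculature genes fell below a ratio of 1 in embryo-like clusters alone. Embryo-like clusters held 67.5% to 68.3% of members under other seeds and resolutions.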
